A study of Pisaster ochraceus with 50 samples.

Results

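Pyloric caecum was compared with tube feet within 13 healthy ochre sea stars, Pisaster ochraceus, by RNA sequencing. An animal entered if its label was asymptomatic, it came from McClures Beach or Lifeboat House, and it had a library of both tissues, which selected 26 of the 50 libraries of the series. The pyloric caecum is the paired digestive gland of each arm. Its secretory and storage cells make digestive enzymes, take up nutrients and hold reserves. The tube feet are hollow podia of the water vascular system. They combine retractor muscle, nerve, ciliated epidermis and connective tissue, and their tips bear an adhesive disc used to grip rock and prey.

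All 13 animals lived at Point Reyes and were taken in August, 12 of them from McClures Beach and 1 from Lifeboat House, and none had signs of wasting disease. By size class, 2 were small, 3 medium, 5 large and 3 xlarge. By label, 2 were feeding when collected and 11 were not, 7 were brown, 5 orange and 1 purple. The libraries carried 5 batch labels, and the tissues were not spread evenly over them: 5 pyloric caecum but 2 tube feet libraries were in batch 3, and 5 animals had both libraries in 1 batch. A tissue sample held many cell types, and a lower level from fewer cells of a type cannot be told apart from less RNA per cell. No gene name accompanies the IDs in the files. Genes therefore appear by ID, no function is stated for them, and the tissue labels could not be checked against marker genes.

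Pyloric caecum libraries held 721096 to 995626 reads assigned to genes (median 825378) and tube feet libraries 619066 to 732460 (median 661713). Reads outside annotated genes made up 75.2% ± 2.99 of the counted reads in pyloric caecum and 79.8% ± 0.877 in tube feet (SD, n = 13 each). A pair of libraries stood apart from the rest of their tissue. In the tube feet library of animal M0D055228P, from batch 3, 12 genes lay under an eighth of the lowest level in the other 12 tube feet libraries. The pyloric caecum library of M0D055227O needed more genes to reach 50% of its gene reads than any other of that tissue. Values with and without them are given where they bear on a result.

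The reads of the pyloric caecum were concentrated in few genes, and those of the tube feet were not. The most abundant gene took 10.2% to 38.4% of the gene reads of a pyloric caecum library (median 22.3%) and 2.02% to 3.55% of those of a tube feet library. The lowest pyloric caecum library lay above the highest tube feet library. This gene was g13155 in 13 of 13 pyloric caecum libraries, while the tube feet had g15 first in 7 libraries and g7444 in 4.

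The 10 most abundant genes of each library held 39.3% ± 6.0008 of the reads in pyloric caecum and 13.1% ± 1.48 in tube feet (SD, n = 13). The 100 most abundant held 65.9% ± 4.69 and 42.2% ± 2.84. The number of genes needed to reach 50% of the reads ran from 8 to 83 in pyloric caecum (median 28) and from 118 to 210 in tube feet (median 172). The groups did not overlap in any of these measures. The library of M0D055227O gave the 83, and without the animal the other 12 pyloric caecum libraries needed 8 to 33 genes.

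**Figure D1:**
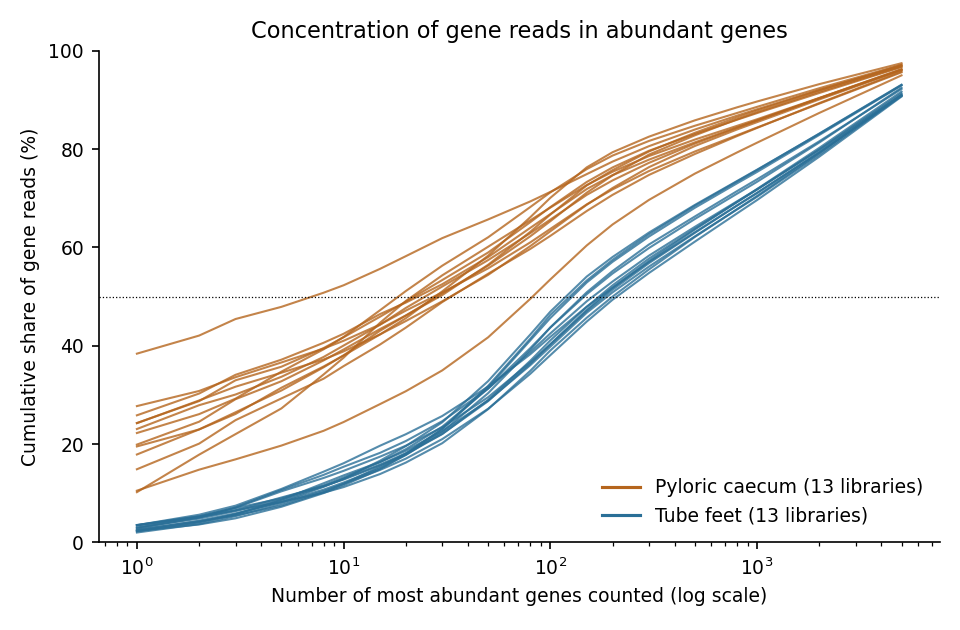
Cumulative share of gene reads (percent, vertical axis) against the number of most abundant genes counted (horizontal axis, log scale), 1 line for each of the 13 pyloric caecum and 13 tube feet libraries. Pyloric caecum lines start between 10.2% and 38.4% and cross the dotted 50% line at 8 to 83 genes, tube feet lines at 118 to 210 genes.

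The diversity of genes read ran the other way. At a common depth of 610000 reads, 11379 to 13112 genes were expected to have a read in pyloric caecum (median 12320) and 13171 to 14916 in tube feet (median 14561). Of the 21777 genes in the files, 17460 had a read in at least 1 pyloric caecum library and 18476 in at least 1 tube feet library. A read was present in all 26 libraries for 6829 genes.

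Each of the 7 composition measures differed between the tissues in the same direction in 13 of 13 animals. By an exact two-sided permutation test over the sign changes of the 13 within-animal differences, p was 0.000244 for each, the smallest the design allows, and 0.000244 after Benjamini-Hochberg adjustment over the 7. The mean difference was 18.6 percentage points for the most abundant gene, 23.6 points for the 100 most abundant genes and -1992 expected genes. Without the reads of g13155 these were smaller, at 2.94 points, 14.3 points and -1515 expected genes at a depth of 540000 reads. Each still passed (exact permutation test, adjusted p = 0.000285). The total of gene reads was higher in pyloric caecum by a mean of 176271 reads, and leaving out the reads of g13155 alone turned this to -8920 reads (exact permutation test, adjusted p = 0.682).

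Of 15230 genes tested, 5730 differed between the tissues (37.6%), at a false discovery rate under 0.01 in edgeR's quasi-likelihood test paired by animal with Benjamini-Hochberg adjustment. Of these, 2485 genes were higher in pyloric caecum (16.3% of the genes tested) and 3245 were lower (21.3%), so that 43.4% of the called genes were higher. Levels are given below as normalised CPM, CPM (reads scaled to a common library size) after TMM scaling, which sets the bulk of genes level between libraries. The scaling factors were 0.564 to 0.965 in pyloric caecum and 1.26 to 1.54 in tube feet, so a normalised CPM is larger than the plain CPM in pyloric caecum and smaller in tube feet. With library size alone, 1384 genes were higher and 8373 lower, 14.2% of the called genes were higher, and the median log2 fold change of all genes was -1.13 rather than -0.18. Directions of small changes hold relative to that median only. In the 5 animals with both libraries in 1 batch, 3650 genes were called, 3522 of them among the 5730. These were 1916 higher and 1734 lower, so that 52.5% were higher and the direction with more calls was the other one. With batch as a covariate in all 13 animals 4992 were called, 2274 higher and 2718 lower.

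Most called differences were large. Among the genes higher in pyloric caecum, 2219 were over 2-fold, 1394 over 4-fold, 691 over 16-fold and 403 over 64-fold higher. Among those lower in pyloric caecum the counts were 2815, 1870, 832 and 314. The direction was the same in 13 of 13 animals for 1301 of the higher genes (52.4%) and 1693 of the lower genes (52.2%).

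In single animals, 89.0% to 95.5% of the genes called higher lay above in the pyloric caecum, and 89.6% to 96.2% of the genes called lower lay below. These shares describe the animals that gave the calls. Over all genes tested, the pyloric caecum was above in 39.3% to 47.5%.

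The libraries of the tissues did not overlap at all in 1796 genes (11.8% of those tested). In 814 of these the pyloric caecum was above (5.34%) and in 982 the tube feet were (6.45%). At the other end, 814 genes had a 95% interval of the fold change that lay within 1.5-fold in either direction, a number that equals the count before it by coincidence. None of these was called.

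The share of genes called rose with their level up to a point. It was 22.8% below a mean of 3 normalised CPM, 40.5% between 10 and 30, and 70.7% between 100 and 1000. Above 1000 it was 44.4%, or 63 of 142 genes, of which 47 were higher and 16 lower in pyloric caecum. The lowest share of calls was thus at the levels with the fewest reads, and the most abundant genes included many with no called difference.

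Shared abundant genes were common. Of the 100 genes with the largest mean share in each tissue, 55 were in both lists. Among the 100 of the pyloric caecum, 46 were called higher there, 0 lower and 54 were not called. Among the 100 of the tube feet, 30 were called lower in pyloric caecum, 1 higher and 69 were not called. Over all genes tested, 16.3% were called higher and 21.3% lower in pyloric caecum. Each list was chosen by level in its own tissue, which favours calls towards that tissue.

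The called genes carried most of the pyloric caecum's reads. The 2485 higher genes held 66.8% ± 5.03 of the gene reads in pyloric caecum and 7.88% ± 0.763 in tube feet (SD, n = 13), a description of the libraries that chose them. The 3245 lower genes held 3.25% ± 0.621 and 38.3% ± 2.63. The 691 genes over 16-fold higher made up 54.4% ± 5.33 of the pyloric caecum reads, and the 832 genes over 16-fold lower made up 21.3% ± 2.53 of the tube feet reads.

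**Figure D2:**
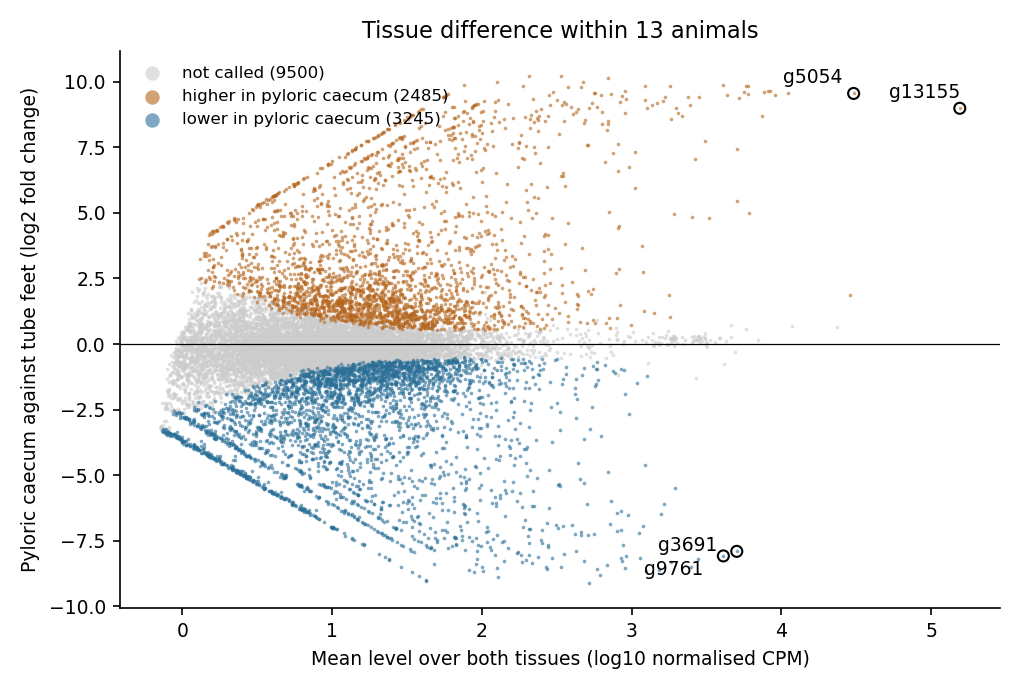
Log2 fold change of pyloric caecum against tube feet (vertical axis) for 15230 genes against their mean level over both tissues (horizontal axis, log10 normalised CPM). Brown points are the 2485 genes called higher, blue points the 3245 called lower, grey points those not called, and circles mark the 4 genes with the largest differences of level.

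The genes with the largest difference of mean level in each direction are named here, among called genes whose libraries did not overlap. The highest was g13155. Its level was 109043 to 623210 normalised CPM in pyloric caecum (median 335204) and 336 to 1254 in tube feet (median 566). The lowest pyloric caecum library lay far above the highest tube feet library, and the low end belonged to M0D055227O. The log2 fold change was 8.99 ± 0.40 (SE; edgeR, adjusted p = 8.8e-18), higher in 13 of 13 animals. As a share of the gene reads, g13155 made up 21.4% ± 7.49 of the pyloric caecum and 0.0855% ± 0.0311 of the tube feet (SD, n = 13). It was the 180th most abundant gene of the tube feet.

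The next was g5054, at 38124 to 107355 normalised CPM in pyloric caecum (median 59096) and 41.0 to 139 in tube feet (median 67.0). The groups were far apart, and the highest pyloric caecum library was that of M0D055232T. The log2 fold change was 9.55 ± 0.34 (SE; edgeR, adjusted p = 1.4e-19), higher in 13 of 13 animals. Between the animals g5054 varied less than g13155 in pyloric caecum: the highest library was about 2.82 times the lowest, against 5.72 times.

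In the other direction, g3691 lay at 11.99 to 73.0 normalised CPM in pyloric caecum (median 35.8) and 494 to 14866 in tube feet (median 10858). The 494 was the library of M0D055228P, and the other 12 tube feet libraries lay at 7380 to 14866. All tube feet libraries were above all pyloric caecum libraries. The log2 fold change was -7.90 ± 0.34 (SE; edgeR, adjusted p = 3.6e-18), lower in 13 of 13 animals. By mean share of reads this was the third most abundant gene of the tube feet.

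The second such gene, g9761, lay at 13.7 to 47.6 normalised CPM in pyloric caecum (median 25.99) and 504 to 12877 in tube feet (median 8838). Again the lowest tube feet library was that of M0D055228P, with the other 12 at 5793 to 12877. The log2 fold change was -8.07 ± 0.36 (SE; edgeR, adjusted p = 6.1e-18), lower in 13 of 13 animals. Within that animal, g3691 and g9761 were still lower in pyloric caecum, with log2 differences of -4.73 and -4.36, against medians of -7.86 and -8.19 over the 13 animals. Over the whole comparison 5540 genes were called without M0D055228P and 5496 without M0D055227O.

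**Figure D3:**
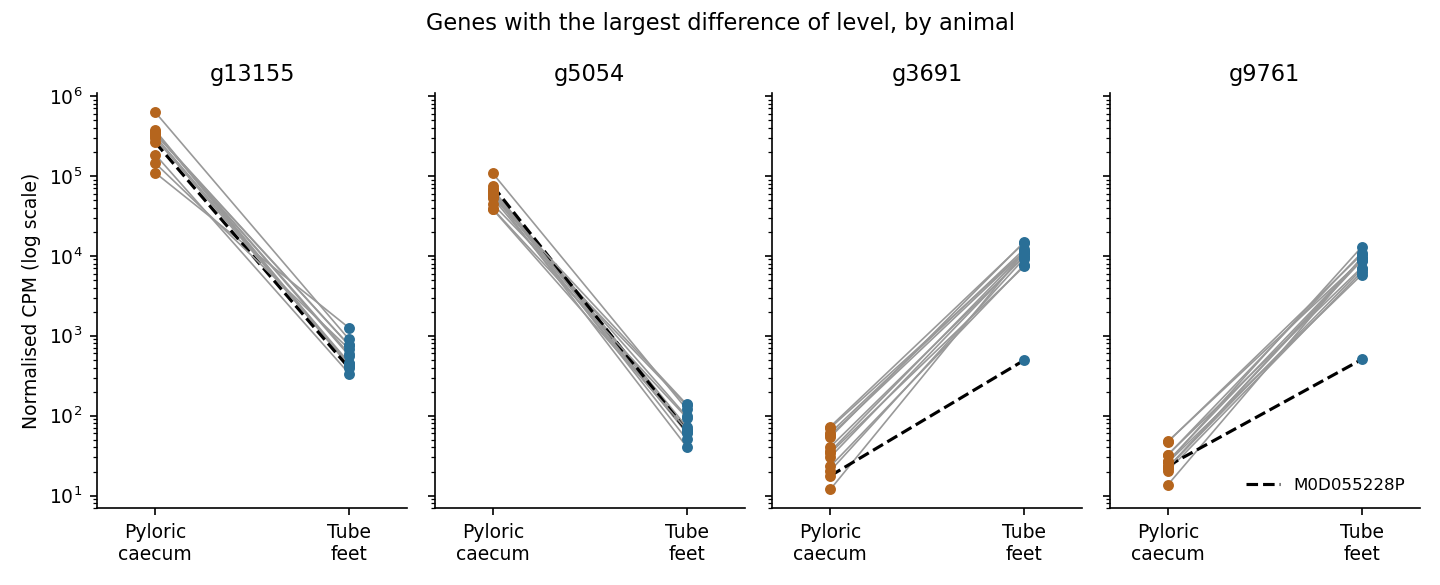
Normalised CPM (log scale, vertical axis) of the 4 named genes in pyloric caecum and tube feet, 1 point per library, with a line joining the libraries of each of the 13 animals. Lines for g13155 and g5054 fall and those for g3691 and g9761 rise in every animal, and the dashed line of M0D055228P ends at 494 and 504 in tube feet for g3691 and g9761.

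A pair of genes was abundant in both tissues. The third most abundant gene of the pyloric caecum, g7444, was the second of the tube feet, with 3.14% ± 1.14 and 1.72% ± 0.634 of the gene reads (SD, n = 13). The most abundant gene of the tube feet, g15, was the fourth of the pyloric caecum, with 2.43% ± 0.855 and 2.09% ± 1.32. For g15 the order of the tissues depended on the scale: its mean share of reads was higher in tube feet, while its mean in normalised CPM was 29768 in pyloric caecum and 17287 in tube feet. Its difference did not pass the test (log2 fold change 0.65 ± 0.30, SE; edgeR, adjusted p = 0.0782; higher in pyloric caecum in 10 of 13 animals on the normalised scale). Gene lengths are not used here, so these shares order genes by reads, not by molecules.

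Some genes were read in 1 tissue alone. In all 13 pyloric caecum libraries and in no tube feet library, reads were found for 73 genes, with means of 3.97 to 151 normalised CPM (median 31.1). Against a floor of 3 reads over the 13 tube feet libraries together, they were at least 15.6-fold to at least 624-fold higher (median bound 124). In all 13 tube feet libraries and in no pyloric caecum library, 106 genes were read, at means of 3.11 to 85.3 normalised CPM (median 12.1), and they were at least 7.90-fold to at least 223-fold lower in pyloric caecum (median bound 31.3). The 73 were 0.915% of the 7978 genes read in all 13 pyloric caecum libraries. The 106 were 1.04% of the 10161 genes read in all 13 tube feet libraries, a similar share. The median level was lower in the tube feet set, on a scale that raises pyloric caecum values and lowers tube feet values. These bounds cover counting error only.

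Animals differed more in the pyloric caecum than in the tube feet. The biological coefficient of variation common to all genes, edgeR's estimate of the spread between animals beyond counting error, was 50.1% in pyloric caecum and 38.7% in tube feet. Among 5362 genes with at least 10 normalised CPM in both tissues, 4932 (92.0%) varied more in pyloric caecum, with medians of 41.8% and 28.5%. The difference in spread was not tested, and the genes share libraries.

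Across 15230 genes, log2 levels correlated at a median of 0.842 between pyloric caecum libraries of different animals (78 pairs, 0.782 to 0.887) and 0.856 between tube feet libraries (0.803 to 0.891). Between the tissues the median was 0.483 within an animal (13 pairs, 0.445 to 0.519) and 0.467 across animals (156 pairs, 0.420 to 0.527). The lowest pair within a tissue lay above the highest pair between tissues. These correlations are across genes, which are not independent replicates.

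Libraries that took no part in the comparison were then placed between the tissues. For each of the 1796 genes without overlap, it was counted whether a library lay nearer the mean of the pyloric caecum or of the tube feet on the log2 scale. The 2 asymptomatic pyloric caecum libraries from animals without a tube feet library were nearer the pyloric caecum for 95.6% and 95.7% of the genes. The 2 pyloric caecum libraries of symptomatic animals were nearer it for 86.1% and 87.6%. Their tube feet were nearer the tube feet for 98.7% and 95.2%. The 2 tube feet libraries of 1 animal from Friday Harbor, labelled asymptomatic and symptomatic, were nearer the tube feet for 95.8% and 97.9%.

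Dermis, the body wall, of 12 of the 13 animals was nearer the tube feet for 69.7% to 79.4% of the 1796 genes (median 73.6%). All 12 libraries lay on the tube feet side. Of the 814 genes high in pyloric caecum, 83.2% to 90.5% were nearer the tube feet in dermis. Of the 982 genes high in tube feet, the range was 54.9% to 72.6%. In all 12 dermis libraries, a larger share of the genes high in pyloric caecum than of those high in tube feet lay on the tube feet side. These libraries were shallower, with 373930 to 611964 gene reads, fewer than any library of the comparison. Their genes with a read numbered 10361 to 14091. Whether depth or the number of genes read bears on these shares was not tested.

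**Figure D4:**
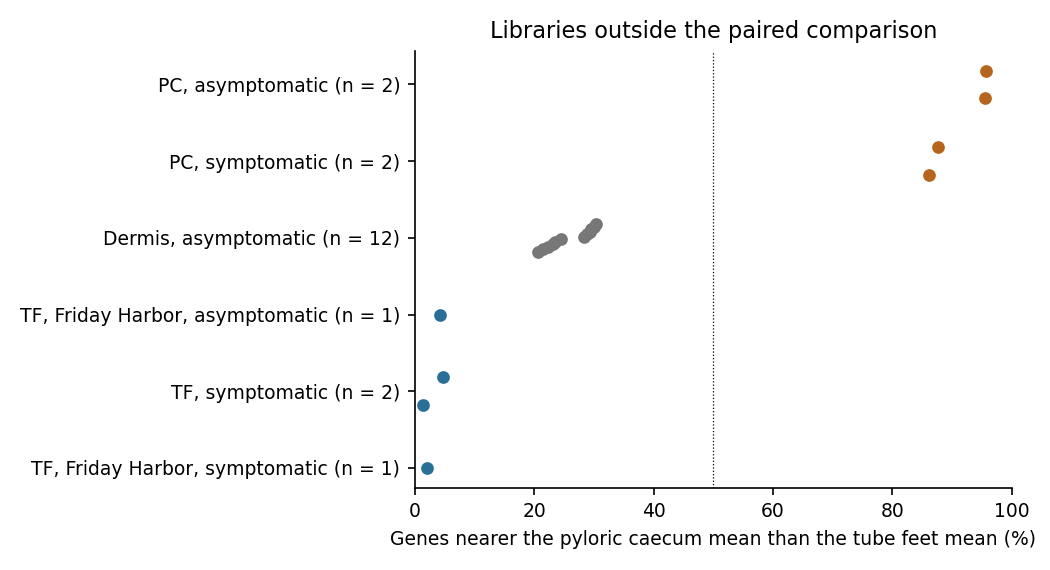
Percent of the 1796 genes without overlap that lay nearer the pyloric caecum mean than the tube feet mean (horizontal axis) in the 20 libraries outside the comparison, 1 point per library, by tissue (PC pyloric caecum, TF tube feet) and label. Pyloric caecum libraries lie at 86.1% or above, tube feet libraries at 4.79% or below and dermis libraries at 20.6% to 30.3%.

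The 2 symptomatic animals with both tissues showed the tissue difference in most called genes of their own libraries. In M0D055233U, the pyloric caecum was above the tube feet for 2036 of the 2485 genes called higher (81.9%) and below for 2776 of the 3245 called lower (85.5%). In M0D055236X the shares were 77.8% and 88.1%. Over all genes tested the pyloric caecum was above in 44.2% and 42.5%. For the genes without overlap the direction was kept in 93.7% and 98.2% in M0D055233U and in 93.5% and 98.3% in M0D055236X. The within-animal log2 difference of g13155 was 9.90 and 8.04, and that of g3691 was -6.98 and -8.81.

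The tissue difference was next compared between symptomatic and asymptomatic animals. It differed in 31 of 15239 genes (0.203%) in edgeR's quasi-likelihood test of the interaction with Benjamini-Hochberg adjustment, with 26 moved towards the pyloric caecum in symptomatic animals (0.171%) and 5 towards the tube feet (0.0328%). The pyloric caecum changed more than the tube feet in 31 of the 31. With 1 normalised CPM added to each mean, its means were over 4-fold apart between the labels in all 31, and those of the tube feet in 0. Without that addition, the tube feet means of g13346 were also over 4-fold apart, at 0.524 in symptomatic and 3.05 in asymptomatic animals. M0D055233U was large, brown and from McClures Beach, with both libraries in batch 2. M0D055236X was medium, orange and from Lifeboat House, with both in batch 5, and neither was feeding. Among the 13 asymptomatic animals, 5 had both libraries in the same batch and 1 came from Lifeboat House. With batch as a covariate 40 genes were called, 28 of them among the 31. Whether site bears on the 31 was not tested, nor whether having both libraries in the same batch does. The result rests on 2 symptomatic animals, and 3 genes were called without M0D055233U and 9 without M0D055236X.

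By size of the interaction, g5304 came first. It lay at 1666 and 1718 normalised CPM in the pyloric caecum of the symptomatic animals, against 0 to 82.8 in the 13 asymptomatic ones (median 27.7), and in tube feet at 5.53 and 9.44 against 4.67 to 24.8. The labels did not overlap in pyloric caecum and overlapped in tube feet. The interaction was 7.10 ± 1.24 on the log2 scale (SE; edgeR, adjusted p = 0.0037).

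The gene g6131 was at 64.4 and 215 normalised CPM in symptomatic pyloric caecum and 0 to 5.82 in asymptomatic (median 1.35). In tube feet it lay at 9.44 and 16.6 against 10.6 to 22.6. In asymptomatic animals it was lower in pyloric caecum than in tube feet in 13 of 13, and in both symptomatic animals it was higher. The interaction was 6.27 ± 0.78 (SE, log2; edgeR, adjusted p = 2.3e-05).

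In the other direction, g4100 was at 9.20 and 14.3 normalised CPM in symptomatic pyloric caecum and 21.0 to 307 in asymptomatic (median 185), an interaction of -4.50 ± 0.86 (SE, log2; edgeR, adjusted p = 0.0074). The gene g9082 was at 1.53 and 5.37 against 43.8 to 252 (median 132), with -3.96 ± 0.77 (SE, log2; edgeR, adjusted p = 0.0081). In tube feet g4100 lay at 1083 and 1820 against 320 to 3150, and g9082 at 15.7 and 21.0 against 20.6 to 57.9. For both genes the labels did not overlap in pyloric caecum and overlapped in tube feet. The calls of g5304, g4100 and g9082 were lost without either symptomatic animal, and that of g6131 without M0D055236X (adjusted p = 0.0167). That of g4100 was also lost without M0D055225M, and that of g9082 without M0D055220H, M0D055222J, M0D055225M, M0D055228P or M0D055234V (edgeR, adjusted p of at most 0.0119). Without the pairing the adjusted p was 0.0175 for g5304, 0.0323 for g4100 and 0.0179 for g9082, and the call of g6131 was kept. At a mean of at least 5 CPM the calls of g4100 (edgeR, adjusted p = 0.0120) and g9082 (0.0104) were lost, as was that of g4100 with filterByExpr (0.0114) and that of g9082 in medium and large animals only (0.0141).

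Body size was related to the tissue difference in few genes. Between the 5 smaller animals (small or medium) and the 8 larger ones (large or xlarge), the interaction passed in 10 of 15230 genes (0.0657%), 7 towards the pyloric caecum in larger animals (0.046%) and 3 towards the tube feet (0.0197%). The pyloric caecum changed more than the tube feet between the size groups in 3 of the 7 and in 2 of the 3. Of these 10, 8 were also called between the tissues, in the same libraries, against 37.6% of all genes tested. The count was 0 to 17 when single animals were left out, with 0 without M0D055219G, 2 without M0D055225M or M0D055230R and 3 without M0D055220H. It was 2 without the pairing by animal.

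The within-animal log2 difference of g985 ran from -1.09 to 0.71 in smaller animals and from 1.51 to 4.22 in larger ones. In pyloric caecum it lay at 2.997 to 10.2 normalised CPM in smaller animals (median 7.07) and 11.9 to 88.5 in larger (median 44.3). In tube feet it lay at 3.92 to 17.4 (median 6.08) and 1.09 to 6.24 (median 2.97). The size groups did not overlap in pyloric caecum. The interaction was 3.64 ± 0.61 (SE, log2; edgeR, adjusted p = 0.0038), and the call was lost without M0D055219G, M0D055223K, M0D055225M or M0D055230R and without the pairing (adjusted p = 0.0173).

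For g12619 the pyloric caecum held 16.7 to 127 normalised CPM in smaller animals (median 39.0) and 0 to 5.41 in larger ones (median 1.64). The tube feet held 82.8 to 582 (median 345) and 123 to 537 (median 269). The tube feet of the size groups overlapped and the pyloric caecum did not. The interaction was -4.36 ± 0.69 (SE, log2; edgeR, adjusted p = 0.0029), lost without M0D055219G (adjusted p = 0.0111).

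Of the other named genes, g19116 rested on few reads and g17079 on both tissues. The called genes that were not named are not described here. For g19116 the interaction was 4.22 ± 0.77 (SE, log2; edgeR, adjusted p = 0.0084), from 0 to 26 reads per library, and the call was kept without M0D055224L, M0D055226N, M0D055227O or M0D055228P but lost without any of the other 9 animals (adjusted p of 0.0103 to 0.0440) and without the pairing (adjusted p = 0.0173). For g17079 it was -3.16 ± 0.55 (SE, log2; edgeR, adjusted p = 0.0058). Its pyloric caecum level was 10.5 to 104 normalised CPM in smaller animals and 1.35 to 56.0 in larger ones, and its tube feet level 1.99 to 14.1 and 3.0003 to 27.2, so both tissues overlapped between the size groups while the within-animal differences did not. Its call was lost without M0D055219G, M0D055220H, M0D055225M or M0D055230R, and without the pairing the adjusted p was 0.143. With batch as a covariate none of the 4 named calls by size was kept (edgeR, adjusted p of 0.0299 to 0.283), and none at a mean of at least 5 CPM (0.0115 to 0.0254). With size class as a rank instead of 2 groups, the calls of g19116 (edgeR, adjusted p = 0.0714) and g985 (0.0563) were lost. Those of g12619 (0.0073) and g17079 (0.00012) were kept.

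Feeding was compared in 2 feeding and 11 not feeding animals. Of the feeding animals, M0D055231S was xlarge with both libraries in batch 5, and M0D055232T was large with both in batch 1. Both were brown and from McClures Beach. Of all 13 animals, 8 were large or xlarge, 7 were brown and 5 had both libraries in 1 batch. The tissue difference passed in 1 of 15230 genes (0.00657%), g7334. In pyloric caecum this gene lay at 170 and 547 normalised CPM in the feeding animals and 5.22 to 64.4 in the others (median 9.43). In tube feet it lay at 30.003 and 85.8 against 11.8 to 113 (median 46.9), within the range of the others. The interaction was 3.97 ± 0.61 (SE, log2; edgeR, adjusted p = 0.0041). Whether size class, colour or having both libraries in 1 batch bears on it was not tested. The call was lost without either feeding animal, M0D055231S or M0D055232T, and without the pairing (adjusted p = 0.545).

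**Figure D5:**
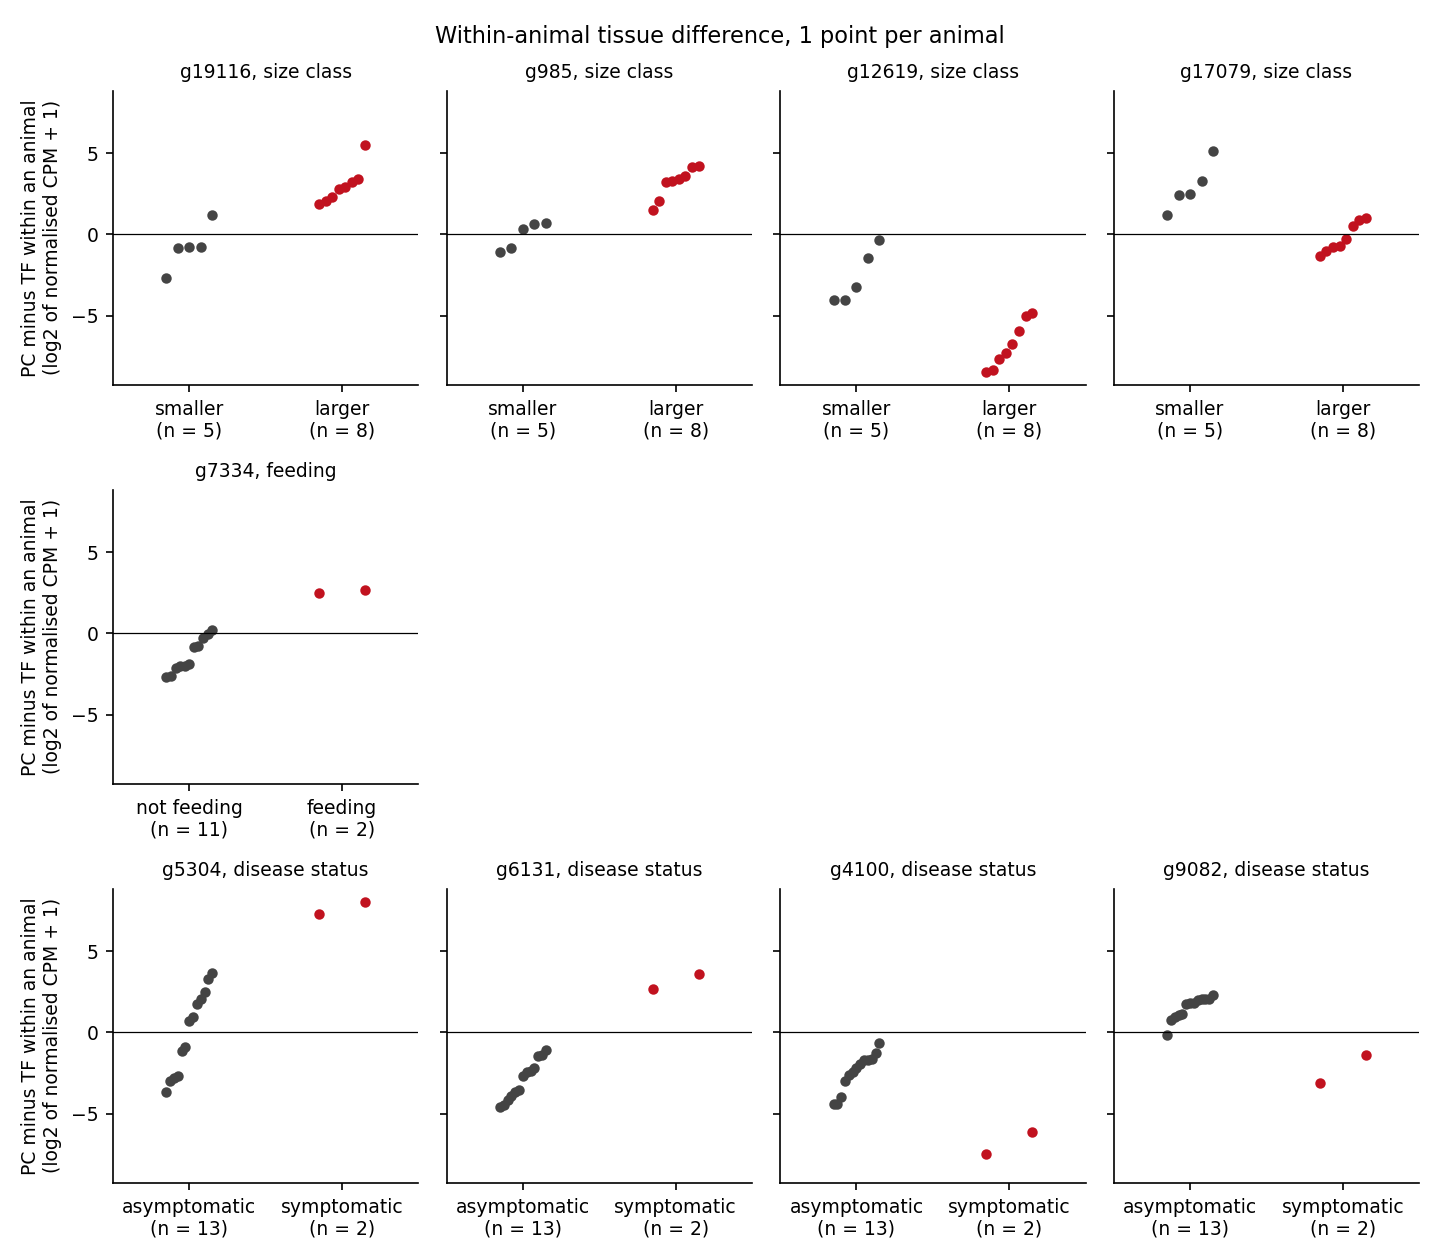
Within-animal difference of pyloric caecum minus tube feet (log2 of normalised CPM plus 1, vertical axis) for the named interaction genes, 1 point per animal, in rows by size class, feeding and disease status. Points of the compared groups do not overlap in any panel, as the choice of these genes requires, and the 2 symptomatic animals lie at 7.32 and 8.04 for g5304.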

How the data were processed

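The values deposited by the authors are raw counts of reads for 21777 genes, with 5 summary lines that were left out of library sizes. RNA was extracted with the RNeasy kit and libraries were made with the TruSeq v2 kit, per the labels' protocols. The submitters' processing notes name Trim Galore 0.4.4, TopHat2 2.0.13, SAMtools 0.1.19 and edgeR. The sources used here do not name the counter, the strand setting, the build or the annotation, so overlapping, antisense and near-identical genes cannot be told apart.

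Counts were fitted with edgeR 4.0.16 in R 4.3.3 (quasi-likelihood F-test, TMM, mean of at least 1 CPM, animal as replicate block, Benjamini-Hochberg false discovery rate under 0.01). Interactions of tissue with size, feeding and disease status used the same settings. Standard errors are the size of the log2 value over the root of its F statistic. Limma 3.58.1 and DESeq2 1.42.0 served as alternatives. Composition measures and within-animal log2 differences (pseudocount of 1 normalised CPM) were computed in Python 3.11.15. The 4 edgeR fits were tested on simulated data.

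Libraries were paired because the labels give both the same animal ID. As a check, deviations from the tissue mean correlated within 12 of 13 animals at over 0.1 (median 0.198, and -0.0173 in M0D055230R), against a median of -0.0176 between animals. The animals are separate individuals, so paired p-values set the within-animal difference against its variation between them. That variation includes differences between batches where the libraries of an animal were in different ones.

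Named genes were, for the tissues, the 2 in each direction with the largest difference of mean CPM among called genes without overlap, and the 3 most abundant of each tissue as levels. For interactions they were up to 2 in each direction with the largest log2 value, at least 10 CPM in 1 tissue of 1 group and no overlap of within-animal differences. The comparison, its rules and its tests were chosen with earlier results of these data known.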

Additional observations from a re-analysis of the deposited data

Results flagged for a closer look

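A total of 36 groups of 4 to 10 animals were searched for a single value far from the others, and 4 were found. Chance flags about 1 in 20 such groups. Among the larger animals, M0D055232T stood apart in the within-animal log2 difference of g19116, at 5.50 against 1.87 to 3.40 in the other 7. The tube feet library of M0D055228P held 732460 gene reads, above the other larger animals. The pyloric caecum library of M0D055227O had 53.5% of its reads in its 100 most abundant genes and needed 83 genes to reach 50% of them, set apart from the other larger animals in both.

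The other 9 results are genes whose tissue difference itself differed between groups of animals in edgeR's interaction test. By size class they are g19116 with a log2 value of 4.22, g985 with 3.64, g12619 with -4.36 and g17079 with -3.16. By feeding it is g7334, with 3.97. By disease status they are g5304 with 7.10, g6131 with 6.27, g4100 with -4.50 and g9082 with -3.96. What underlies these differences was not tested.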

How the results depend on the processing

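The 29 alternatives to the paired tissue comparison gave 3344 to 9757 genes, and 26 lay within 1.5 times the 5730. The others were library size only (9757), a minimum fold of 2 (3344) and the 5 same-batch pairs only (3650, of which 3522 were shared with the 5730). Without the replicate block 5772 genes were called, and with batch as a covariate 4992, where batch 5 cannot be told apart from its animals. DESeq2 called 5377. The calls of g13155, g5054, g3691 and g9761 were kept throughout, the first in 28 alternatives, as 1 leaves it out.

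The composition measures in the 5 same-batch pairs cannot pass the test, since the smallest exact permutation p is 0.0625. Their mean differences kept direction: 229111 gene reads, -5.85 points of reads outside genes, -1833 expected genes, 22.4 points for the most abundant gene, 29.5 for the top 10, 24.9 for the top 100 and -146 genes to reach 50% of reads. Total gene reads turned to -8920 without g13155. The differences in concentration kept direction without it but shrank, to 2.94 points for the most abundant gene, 10.8 for the top 10 and 14.3 for the top 100. Expected genes were then at -1515 and genes to reach 50% of reads at -92.8.

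By size, the paired count of 10 was 2 with no replicate block, 4 with batch as covariate, 23 in DESeq2, 0 at a mean CPM of at least 5 (edgeR, 923 genes at an unadjusted p under 0.05), 0 with filterByExpr (936), 31 at a rate under 0.05, 30 in animals not feeding and 6 at McClures Beach. With size class as a rank the count was 9, of which 3 were among the 10. Leaving out single animals gave 0 to 17. By feeding, the paired count of 1 was 0 with no replicate block (edgeR, 730), 5 with batch, 0 at a CPM of at least 5 (601) and 0 with filterByExpr (589), 1 in DESeq2, and 0 to 2 without single animals. By disease status the 31 were 93 in DESeq2, 134 at a rate under 0.05 and 3 to 47 without single animals. The causes were not tested. Of the genes under a mean of 3 normalised CPM, 22.8% were called. Whether depth limits these calls was not tested.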

Other observations

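The 12 genes set apart in the tube feet of M0D055228P were chosen with their values in view. All 12 were called lower in pyloric caecum, each over 16-fold, and 5 were among the 100 most abundant genes of the tube feet, g3691 and g9761 among them. Their levels in that library were 13.03-fold to 96.5-fold below the mean of the other 12 tube feet libraries, on the scale of log2(normalised CPM + 1) (median 17.5-fold). Together they made up 0.235% of its gene reads, against 2.50% to 5.50% in the other 12 (median 4.32%). In the 4 tube feet libraries outside the comparison they made up 1.49% to 3.03%, and in the 13 pyloric caecum libraries 0.00402% to 0.0125%. In dermis of the paired animals they made up 0.00893% to 0.0213% (n = 12), the lowest in that same animal. Over all 832 genes over 16-fold lower in pyloric caecum, these 12 included, the median log2 difference of that library from the other tube feet was -0.06. It was the lowest of the 13 tube feet libraries in 163 of the 832 (19.6%), against 5.85% of all genes tested. The 832 genes held 15.7% of its gene reads, below the 18.5% to 25.7% of the other 12. What sets these 12 genes apart was not tested.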
